A study of Homo sapiens with 9 samples.

Results

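The genes described here are 10 regulators of the passage from G1 into S phase: the D-type cyclins CCND1, CCND2 and CCND3, the E-type cyclins CCNE1 and CCNE2, the CIP/KIP inhibitors CDKN1A, CDKN1B and CDKN1C, and the INK4 inhibitors CDKN2C and CDKN2D. They are 10 of the 62700 genes in the count table, and all 10 were among the 17576 genes with enough counts to be tested. They were picked by symbol with measured values in view: CCND1 and CCNE1 because they were higher with CIC fusion proteins, CDK inhibitors to set against them, and CDKN1B because it differed from control in opposite directions with the 2 fusions. The comparisons of each fusion with empty vector therefore helped to choose these genes. Their values there are given as descriptions, and a count of members called in them is set beside the share of all genes and supports nothing. The comparison of the fusions with each other was a stated reason for CDKN1B only, and it was tested for the other 9 genes. It shares its fusion libraries with the comparisons used in the choice, and earlier results of these data were known. Its p-values, for these genes and for other genes named below, are therefore not free of the choice.

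The cells were 293T, a human embryonic kidney line that carries the SV40 large T antigen. They were reverse transfected, 300000 cells at a time, with 1 of 3 plasmids, and polyA RNA was taken about 48 hours later. The plasmids were an empty vector, HA-tagged CIC exon 20 joined to NUTM1 exon 6 (CIC::NUTM1), and HA-tagged CIC::DUX4, with 3 libraries for each. CIC is a DNA-binding repressor that is joined to NUTM1 or DUX4 in sarcomas, so the model is short plasmid expression of a sarcoma fusion in kidney cells, and the promoter that drives the inserts is not given in the sources used here. All groups went through transfection, and the fused genes' own transcripts, which would check the labels, were not analysed here.

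In G1, D-type cyclins bind and activate the kinases CDK4 and CDK6, and E-type cyclins then activate CDK2. The kinases phosphorylate the pocket proteins RB1, RBL1 and RBL2, which releases E2F factors to switch on genes of DNA replication. INK4 proteins bind CDK4 and CDK6 and keep cyclin D away, whereas CIP/KIP proteins bind cyclin and kinase together and inhibit CDK2 complexes. Large T antigen binds pocket proteins, so parts of this pathway are already altered in every group of these cells.

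Total counts per library were between 16970771 and 33655445, and each of the 10 genes had at least 120 counts in every library. Levels are CPM, read counts relative to the library total as scaled by TMM, and differences are log2 fold changes with the standard error (SE) of an edgeR quasi-likelihood fit to all 9 libraries. A gene is called when its Benjamini-Hochberg adjusted p over all 17576 genes is under 0.05. The 7 markers of embryonic kidney 293T cells summed to between 1130 and 1360 CPM in all libraries, of which NEFM and VIM gave most. Within that sum members moved in opposite directions by edgeR: NEFM was called lower with both fusions (-0.70 with CIC::NUTM1 and -0.65 with CIC::DUX4), GATA3 higher with both (1.10 and 0.49), VIM and LHX1 higher with CIC::NUTM1 (0.31 and 0.41) and KRT8 higher with CIC::DUX4 (1.31). The 4 haematopoietic markers summed to between 1.37 and 3.13 CPM with empty vector, between 5.44 and 10.6 CPM with CIC::NUTM1 and between 5.61 and 8.89 CPM with CIC::DUX4. SPI1 and PTPRC were called higher with both fusions, and CD3E had no count in 8 of the 9 libraries and 0.191 CPM in the other; the part of these markers in the results was not tested. Summed endothelial, hepatocyte and fibroblast markers stayed at or under 0.801, 0.648 and 7.82 CPM.

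Windows of RefSeq's GRCh38.p14 promoter table, picked by symbol, were searched for 6 of the 10 genes, with 10 windows in all. Only the 250 bases upstream of each start site were searched, and window below means these bases. CCND1, CCND2 and CDKN1C had no entry. No window of CCNE2 was searched, so whether it has an entry is not shown here. The following 3 are shown because all libraries of at least 1 fusion lay above empty vector for CCNE1, CDKN2D and CDKN2C and their windows reach upstream of the first GENCODE 29 exon. Capitals mark GC boxes (GGGCGG or its complement CCGCCC, the core bound by SP1) and CCAAT boxes (CCAAT, the NF-Y core), both searched on both strands and chosen after the sequences were seen. The CCNE1 stretch is chr19:29811741-29811897 (plus strand), the CDKN2D stretch chr19:10569060-10569229 (minus strand) and the CDKN2C stretch chr1:50960495-50960744 (plus strand), each 5′ to 3′.
CCNE1: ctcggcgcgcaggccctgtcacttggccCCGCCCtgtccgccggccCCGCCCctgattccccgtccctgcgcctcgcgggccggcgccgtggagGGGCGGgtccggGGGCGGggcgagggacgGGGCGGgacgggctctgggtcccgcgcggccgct
CDKN2D: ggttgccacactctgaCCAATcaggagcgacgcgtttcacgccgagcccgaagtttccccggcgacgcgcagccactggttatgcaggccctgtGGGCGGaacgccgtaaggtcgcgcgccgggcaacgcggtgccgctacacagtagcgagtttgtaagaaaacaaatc
CDKN2C: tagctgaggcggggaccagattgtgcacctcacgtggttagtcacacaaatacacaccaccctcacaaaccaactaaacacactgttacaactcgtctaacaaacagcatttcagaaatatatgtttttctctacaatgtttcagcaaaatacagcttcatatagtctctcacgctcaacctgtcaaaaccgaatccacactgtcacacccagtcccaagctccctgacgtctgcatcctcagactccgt
The CCNE1 stretch holds 5 GC boxes and no CCAAT box, the CDKN2D stretch holds 1 of each, and this CDKN2C stretch holds neither. A GC box occurred in 42.6% and a CCAAT box in 32% of all 35116 windows of 250 bases. The CCNE1 and CDKN2D stretches are shorter, with 157 and 170 bases. CDKN2C has 2 further RefSeq starts that lie in exons, and at 1 of them 5 GC boxes were found, of which a pair overlaps. The CDKN1B window holds 1 GC box and 2 CCAAT boxes and is not printed because 244 of its 250 upstream bases lie in an annotated exon.

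None of the 10 windows held the CIC octamers TGAATGAA or TGAATGGA, which occurred in 2.19% of all windows. None held the E2F forms TTTCCCGC, TTTCGCGC, TTTGCCGC or TTTGGCGC (2.79% of windows), the AP-1 form TGANTCA (6.57%) or the ETS form CCGGAAGT (3.42%). The absence says only that these letters are not in these windows.

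With CIC::NUTM1, 6 of the 10 genes were called higher than with empty vector (CCND1, CCND3, CCNE1, CDKN1B, CDKN2C and CDKN2D) and 0 lower by edgeR, DESeq2 or limma-trend, where 11.5% of all genes were called higher, 3.83% lower and 15.3% in either direction. With CIC::DUX4, 4 were called higher (CCND1, CCND3, CCNE1 and CDKN2D) and 1 lower (CDKN1B), where 6.96% of all genes were called higher, 1.27% lower and 8.24% in either direction. The 3 CIC::NUTM1 libraries all lay above those of empty vector for 6 of the 10 genes and below for 0, beside 18.2% and 12.9% of all genes (31.1% in either direction). The CIC::DUX4 libraries all lay above for 4 and below for 3 (CCNE2, CDKN1B and CDKN2C), beside 14.8% and 11% of all genes (25.7% in either direction). Nothing is read from these counts, since the same comparisons helped to choose the genes. Both comparisons share the 3 empty vector libraries. The median log2 fold change of the 10 genes was 0.61 with CIC::NUTM1 and 0.00 with CIC::DUX4, beside -0.001 for all genes in each. In bulk RNA, a level that differs can reflect fewer cells with the transcript or less RNA per cell, and these cannot be told apart.

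**Figure D1:**
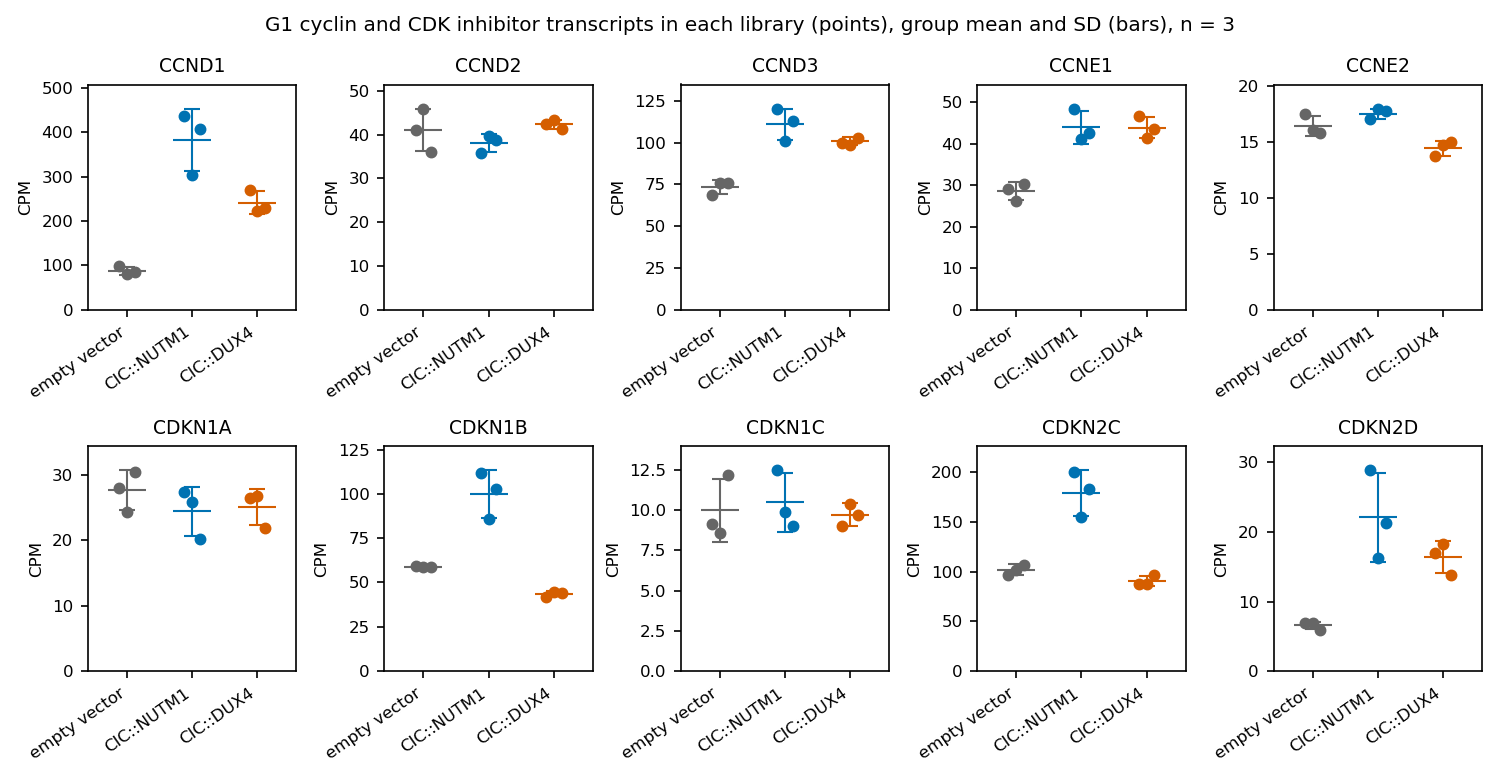
TMM-scaled CPM of the 10 genes on the y axis of each panel, by group on the x axis, with 1 point per library and bars for the mean and SD of 3 libraries. CCND1, CCND3, CCNE1 and CDKN2D lie above empty vector with both fusions, CDKN2C with CIC::NUTM1, and CDKN1B lies above it with CIC::NUTM1 (85.8 to 112 CPM) and below it with CIC::DUX4 (41.9 to 44.6 CPM).

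CCND1 (ENSG00000110092, chr11:69641087-69654474 of GRCh38, plus strand) encodes cyclin D1, the D-type cyclin that growth factor signalling through the MAP kinase pathway induces in many cells. It measured 97.4, 79.2 and 84.5 CPM in empty vector replicates 1, 2 and 3. It measured 438, 303 and 407 CPM in the CIC::NUTM1 libraries and 271, 222 and 229 CPM in the CIC::DUX4 libraries. The 3 groups did not overlap, and the order was the same in every library: empty vector lowest, CIC::DUX4 between, CIC::NUTM1 highest. The log2 fold change against empty vector was 2.14 ± 0.15 (SE) with CIC::NUTM1, a 4.4-fold difference, and 1.47 ± 0.15 with CIC::DUX4, a 2.77-fold difference. Between the fusions CCND1 was 1.59-fold higher with CIC::NUTM1 (log2 0.67 ± 0.14, 95% interval 0.34 to 0.99, edgeR adjusted p = 0.0251), where 6.61% of all genes were called. That call was lost in 4 of the 9 edgeR refits that left out 1 library, with adjusted p of 0.0694 without CIC::NUTM1 replicate 1, 0.13 without CIC::NUTM1 replicate 3, 0.0866 without CIC::DUX4 replicate 2 and 0.133 without CIC::DUX4 replicate 3. The difference stayed between 0.56 and 0.81 on the log2 scale in all 9 refits.

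CCND3 (ENSG00000112576, chr6:41934933-42050357, minus strand) encodes cyclin D3, best known from lymphoid and muscle cells. Its levels were 68.7, 75.9 and 75.8 CPM with empty vector, 120, 101 and 113 CPM with CIC::NUTM1 and 100, 98.5 and 103 CPM with CIC::DUX4. Both fusion groups lay above empty vector and overlapped each other. The log2 fold changes against empty vector were 0.60 ± 0.07 with CIC::NUTM1 and 0.45 ± 0.07 with CIC::DUX4, smaller than those of CCND1. The difference between the fusions was 0.14 ± 0.07 (95% interval -0.01 to 0.30) and did not pass the edgeR test (adjusted p = 0.318).

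CCND2 (ENSG00000118971, chr12:4273772-4305350, plus strand) encodes cyclin D2, which is prominent in neural progenitors, gonads and B cells. It measured 41.1, 45.9 and 36.1 CPM with empty vector, 35.8, 39.7 and 38.8 CPM with CIC::NUTM1 and 42.4, 43.5 and 41.4 CPM with CIC::DUX4. Each fusion overlapped empty vector, while the CIC::NUTM1 libraries all lay below those of CIC::DUX4. The log2 fold changes against empty vector were -0.11 ± 0.09 with CIC::NUTM1 and 0.05 ± 0.09 with CIC::DUX4. The difference between the fusions was -0.16 ± 0.10 (95% interval -0.35 to 0.04) and was not called (edgeR adjusted p = 0.422).

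Per kilobase of exon, the scale on which genes can be compared with each other, CCND1 made up 45.7% to 53.4% of the summed D-type cyclin level in the empty vector libraries. Its share was 73.2% to 77.9% with CIC::NUTM1 and 66.6% to 70.8% with CIC::DUX4. With the longest annotated transcript as the length, the shares were 32.2% to 39.2%, 59.3% to 64.6% and 51.8% to 56.6%. Under that length CCND3 exceeded CCND1 in empty vector cells (30.7 ± 1.72 against 20.2 ± 2.17 CPM per kilobase, SD, n = 3). The exons of its 23 annotated transcripts together span 5802 bases and its longest transcript 2394. The order of the groups was the same with either length.

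CCNE1 (ENSG00000105173, chr19:29811898-29824308, plus strand) encodes cyclin E1, which activates CDK2 at the G1/S boundary and is itself an E2F target. It measured 29.2, 26.1 and 30.3 CPM with empty vector, 48.5, 41.1 and 42.5 CPM with CIC::NUTM1 and 46.6, 41.5 and 43.5 CPM with CIC::DUX4. All 6 fusion libraries lay above all 3 of empty vector. The log2 fold change was 0.62 ± 0.10 with each fusion, a 1.54-fold difference. Between the fusions it was 0.00 ± 0.09 (95% interval -0.19 to 0.20), and the edgeR adjusted p of 0.999 does not show that they act alike.

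CCNE2 (ENSG00000175305) encodes cyclin E2, which shares the CDK2 role. It measured 17.5, 16 and 15.8 CPM with empty vector, 17, 17.9 and 17.7 CPM with CIC::NUTM1 and 13.7, 14.7 and 15 CPM with CIC::DUX4. The CIC::DUX4 libraries lay below all others by small margins. The log2 fold changes against empty vector were 0.10 ± 0.12 with CIC::NUTM1 and -0.18 ± 0.12 with CIC::DUX4. The difference between the fusions, 0.28 ± 0.12 (95% interval 0.03 to 0.54), was not called after adjustment over all genes (edgeR adjusted p = 0.201). INTS8 and NDUFAF6 overlap CCNE2 on the other strand, as LTO1 does CCND1, CCND2-AS1 CCND2, AL513008.1 CCND3 and DINOL CDKN1A. The use of strand in counting is not given in the sources used here, and without it the reads of such partners cannot be told apart. On the same strand, AC008115.3 overlaps CDKN1B, AC008012.1 CCND2 and RNU6-761P CCND3, and there strand would not separate the reads.

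CDKN1B (ENSG00000111276, chr12:12715058-12722371, plus strand) encodes p27Kip1, an inhibitor of cyclin E-CDK2 whose transcription FOXO factors raise and whose protein the SKP2 ubiquitin ligase removes. It measured 59.2, 58.9 and 58.5 CPM in the empty vector libraries. The CIC::NUTM1 libraries measured 112, 85.8 and 103 CPM, and those of CIC::DUX4 41.9, 44.6 and 44.2 CPM. No group overlapped another, with empty vector between the fusions. The log2 fold change was 0.77 ± 0.09 with CIC::NUTM1 (1.7-fold higher), -0.44 ± 0.09 with CIC::DUX4 (1.35-fold lower) and 1.20 ± 0.09 between the fusions (2.3-fold higher with CIC::NUTM1). Over all genes tested, 9 (0.0512%) were called higher with CIC::NUTM1 and lower with CIC::DUX4: ACTG1, CDKN1B, COG7, EN2, GATA6, HOXA10, HOXA11, TBX3 and ZIC2. No gene was called in the reverse pair of directions. These 9 were named after the pattern was seen.

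CDKN1A (ENSG00000124762, chr6:36676460-36687339, plus strand) encodes p21Cip1, a CDK inhibitor of growth arrest after DNA damage. It measured 28, 24.3 and 30.4 CPM with empty vector, 27.3, 25.8 and 20.2 CPM with CIC::NUTM1 and 26.4, 26.7 and 21.8 CPM with CIC::DUX4. The groups overlapped in every comparison. The log2 fold changes were -0.17 ± 0.12 with CIC::NUTM1, -0.14 ± 0.12 with CIC::DUX4 and -0.04 ± 0.12 between the fusions (95% interval -0.29 to 0.22, edgeR adjusted p = 0.924).

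CDKN1C (ENSG00000129757, chr11:2883213-2885773, minus strand) encodes p57Kip2, an imprinted gene of the same family. It measured 9.16, 8.61 and 12.2 CPM with empty vector, 12.5, 9.87 and 9.01 CPM with CIC::NUTM1 and 9.04, 10.4 and 9.7 CPM with CIC::DUX4. The groups overlapped throughout. The log2 fold changes were 0.06 ± 0.17, -0.04 ± 0.17 and 0.10 ± 0.17 with CIC::NUTM1, with CIC::DUX4 and between the fusions (95% interval of the last -0.25 to 0.46, edgeR adjusted p = 0.826).

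**Figure D2:**
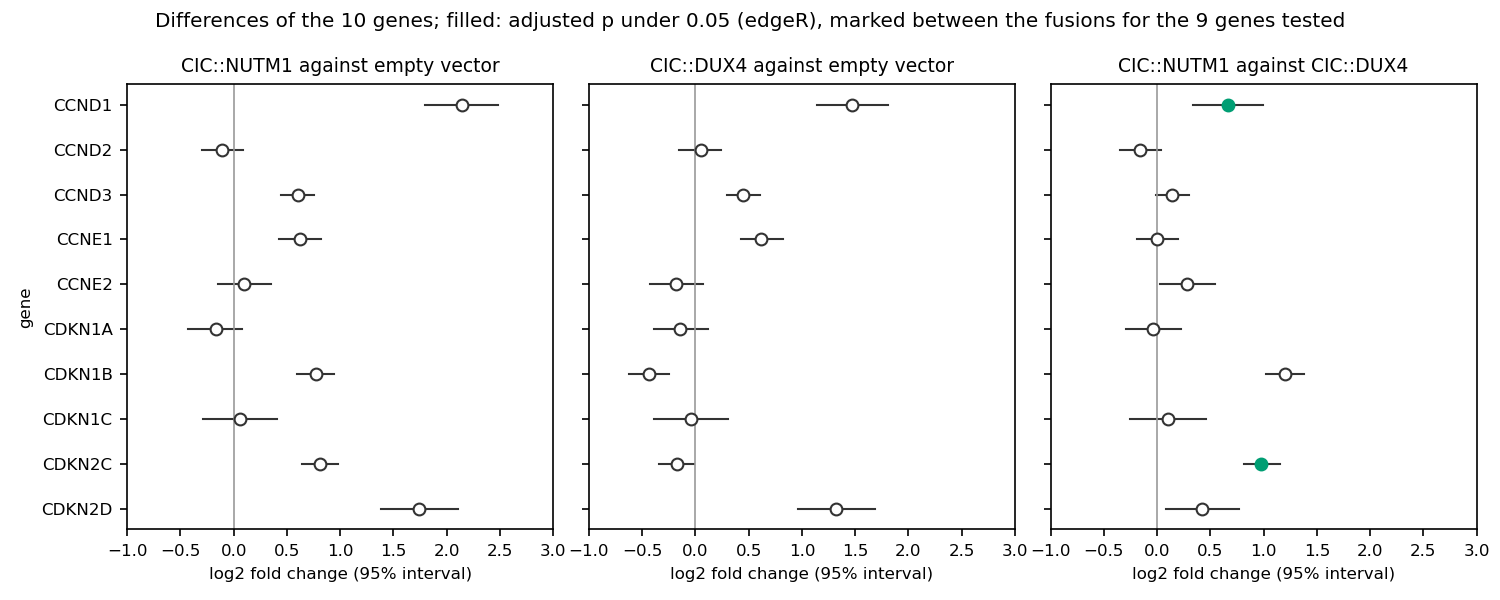
Log2 fold change on the x axis with its 95% interval (lines) for each of the 10 genes (y axis) in the 3 comparisons. Filled points, used in the comparison between the fusions for the 9 genes tested there, mark an edgeR adjusted p over all genes under 0.05 (CCND1 and CDKN2C), and CDKN1B lies at 0.77 with CIC::NUTM1 and at -0.44 with CIC::DUX4.

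CDKN2C (ENSG00000123080, chr1:50960745-50974633, plus strand) encodes p18INK4c, an inhibitor of CDK4 and CDK6. It measured 96.6, 102 and 107 CPM with empty vector, 200, 155 and 183 CPM with CIC::NUTM1 and 87.5, 87.6 and 96.4 CPM with CIC::DUX4. All CIC::NUTM1 libraries lay above and all CIC::DUX4 libraries below those of empty vector. This separation held for 103 of all genes tested (0.586%), CDKN1B and CDKN2C among them, and the reverse for 27 (0.154%). Against empty vector the log2 fold change was 0.81 ± 0.08 with CIC::NUTM1 (1.75-fold higher) and -0.17 ± 0.08 with CIC::DUX4. Between the fusions CDKN2C was 1.98-fold higher with CIC::NUTM1 (log2 0.98 ± 0.08, 95% interval 0.82 to 1.15, edgeR adjusted p = 9.74e-09). It ranked 15 among the 17576 genes by p in that comparison, and its edgeR call held in all 9 refits with 1 library left out (log2 0.9 to 1.08).

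CDKN2D (ENSG00000129355, chr19:10566462-10569059, minus strand) encodes p19INK4d, the INK4 member whose level is known to vary through the cell cycle. It measured 6.87, 6.85 and 5.97 CPM with empty vector, 28.9, 16.2 and 21.3 CPM with CIC::NUTM1 and 17, 18.3 and 13.8 CPM with CIC::DUX4. All fusion libraries lay above empty vector, and the fusion groups overlapped each other. The log2 fold change was 1.74 ± 0.18 with CIC::NUTM1 (3.35-fold higher) and 1.32 ± 0.18 with CIC::DUX4 (2.5-fold higher), the size next to that of CCND1 among the 10 genes with both fusions. The difference between the fusions was 0.42 ± 0.17 (95% interval 0.08 to 0.77) and was not called (edgeR adjusted p = 0.159). Without CIC::NUTM1 replicate 2, the lowest of its group, that difference was 0.61 and was called (edgeR adjusted p = 0.016).

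Between the fusions, 2 of the 9 genes tested were called, CCND1 and CDKN2C, both higher with CIC::NUTM1, where 4.97% of all genes were called higher, 1.64% lower and 6.61% in either direction. The other 7 were not called. All CIC::NUTM1 libraries lay above those of CIC::DUX4 for 4 of the 10 genes (CCND1, CCNE2, CDKN1B and CDKN2C) and below them for 1 (CCND2), as for 12.6% and 9.36% of all genes (22% in either direction). The median log2 difference of the 10 genes was 0.21, beside -0.005 for all genes. These 10 include CDKN1B (1.20), which was chosen with this difference in view. Nothing is read from this median or from the counts over 10 genes.

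On the scale of CPM per kilobase of exon, the order in empty vector cells was CDKN2C (30.7 ± 1.57, SD, n = 3), CDKN1B (20.9 ± 0.125), CCND1 (18 ± 1.94), CCND3 (12.7 ± 0.712), CCNE1 (11.2 ± 0.854), CDKN1A (9.04 ± 1.01), CCND2 (5.73 ± 0.685), CDKN2D (4.37 ± 0.342), CDKN1C (4.03 ± 0.78) and CCNE2 (3.74 ± 0.211). CCND3 and CCNE1 differed by less than the sum of their SDs, and so did CDKN2D and CDKN1C, and CDKN1C and CCNE2. With CIC::NUTM1 the highest level was that of CCND1 (79.2 ± 14.6), followed by CDKN2C (54 ± 6.85) and CDKN1B (35.7 ± 4.74). With CIC::DUX4 CCND1 was again highest (49.8 ± 5.49), followed by CDKN2C (27.3 ± 1.54), and CDKN1B (15.5 ± 0.518) stood below CCND3 (17.3 ± 0.395) and CCNE1 (17.2 ± 1.01), which differed by less than the sum of their SDs. This order depends on the length used. With the longest transcript, the order in empty vector cells began with CDKN2C (35.1), CCND3 (30.7), CDKN1B (22.2) and CCND1 (20.2), the last 2 within the sum of their SDs. With that length CCND1 was highest with both fusions (88.8 with CIC::NUTM1 and 55.9 with CIC::DUX4). CCND3 stood above CDKN1B with CIC::NUTM1 (46.5 ± 4.01 against 37.7 ± 5.01), within the sum of their SDs. With CIC::DUX4, CCND3 stood above CDKN2C (42 against 31.2).

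Summed per family on the same scale, the D-type cyclins stood at 35.6 to 37.7 CPM per kilobase with empty vector, 85.7 to 116 with CIC::NUTM1 and 69 to 79.3 with CIC::DUX4. The E-type cyclins stood at 13.9 to 15.5, 20.2 to 22.9 and 19.6 to 21.4. The CIP/KIP inhibitors stood at 32.4 to 35.7, 43 to 53.8 and 26.8 to 28.8. The INK4 inhibitors CDKN2C and CDKN2D together stood at 33.7 to 36.2, 57.5 to 79.5 and 37.7 to 38.6. The sums of both cyclin families and of CDKN2C with CDKN2D were above empty vector with both fusions. The CIP/KIP sum was above it with CIC::NUTM1 and below it with CIC::DUX4, as was CDKN1B, which was chosen for that pattern. With empty vector, CIC::NUTM1 and CIC::DUX4, CDKN1B stood at 20.9, 35.7 and 15.5, CDKN1A at 9.04, 8.01 and 8.19 and CDKN1C at 4.03, 4.22 and 3.92. CCND1 and CCNE1 were chosen for being higher, so nothing is read from these sums.

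**Figure D3:**
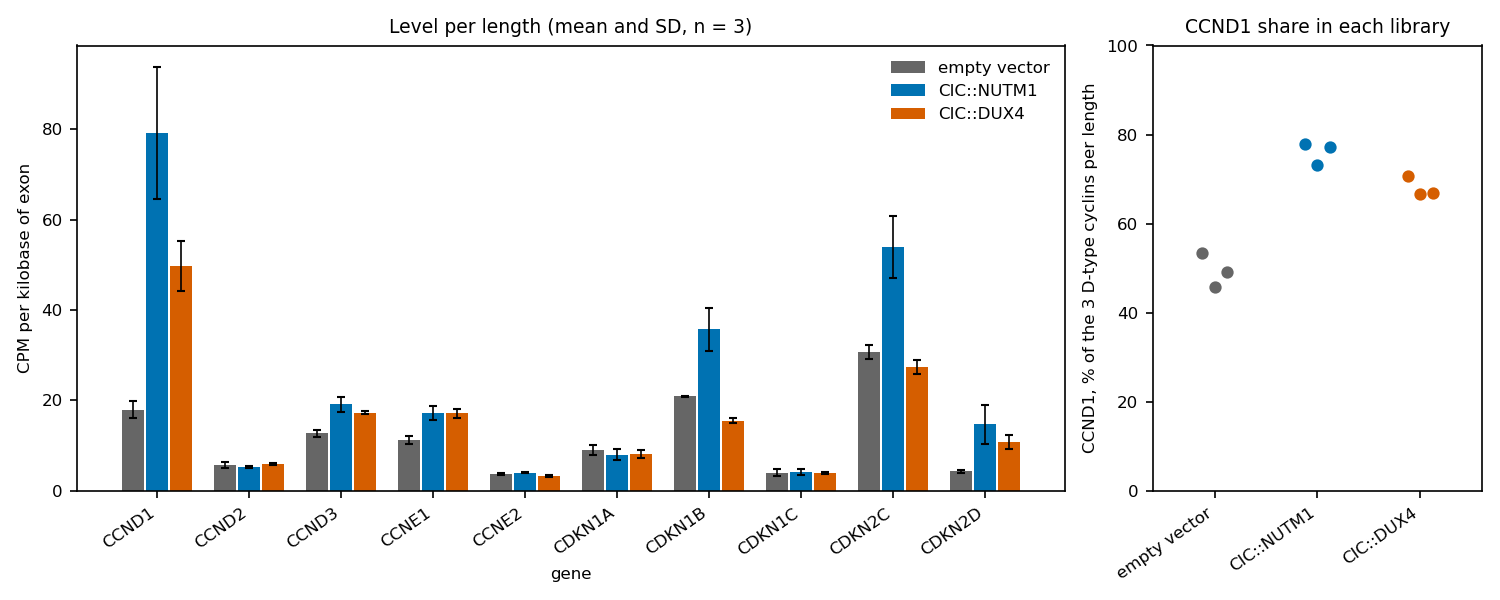
Left, mean CPM per kilobase of exon (bars, y axis) with the SD of 3 libraries for each gene (x axis) and group; right, the percentage of the summed D-type cyclin level that CCND1 made up in each library (points). With this length CCND1 has the third highest level with empty vector (18; the fourth with the longest transcript, 20.2) and the highest with CIC::NUTM1 (79.2) and CIC::DUX4 (49.8).

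The partners of these cyclins were described with a list of 24 kinase and pocket protein genes, all tested. With each fusion edgeR called 3 higher than with empty vector (12.5%, beside 11.5% of all genes with CIC::NUTM1 and 6.96% with CIC::DUX4) and 0 lower. The count of 3 with CIC::DUX4 was 1 when any 1 of the 3 empty vector libraries or of CIC::DUX4 replicates 1 and 2 was left out. With CIC::NUTM1 3 were called lower with upper quartile factors, with library totals, with no filter on low counts and without CIC::NUTM1 replicate 2. At an unadjusted p under 0.05, 4 were lower with CIC::NUTM1 and 1 with CIC::DUX4; DESeq2 called 0 lower with either, and limma-trend 1 with CIC::NUTM1 and 0 with CIC::DUX4. The genes called higher with CIC::NUTM1 were LIN54 (log2 1.27 ± 0.10, edgeR adjusted p = 1.04e-09), LIN52 (0.64 ± 0.11, 0.00011) and CDC25A (0.28 ± 0.07, 0.00362). LIN54 and LIN52 are subunits of the complex that joins pocket proteins to cell cycle promoters, and CDC25A is the phosphatase that activates CDK2. With CIC::DUX4 the same 3 were called at 0.53 ± 0.10, 0.37 ± 0.11 and 0.21 ± 0.07, and the calls of CDC25A and LIN52 were lost in 7 and 5 of 9 refits with 1 library left out (edgeR adjusted p up to 0.303 and 0.276). That of CDC25A was also lost under 5 other settings, DESeq2 among them (adjusted p = 0.0539, and 0.0523 to 0.0751 over the 5). LIN54 measured 29.9, 30.4 and 28.7 CPM with empty vector, 74.5, 61.8 and 78.6 CPM with CIC::NUTM1 and 49.1, 40.7 and 38.7 CPM with CIC::DUX4, and it was the gene of this list called between the fusions (0.74 ± 0.10, edgeR adjusted p = 1.55e-05). LIN9 and LIN37, the other LIN genes of the list, were not called in any comparison. LIN9 differed by 0.06 ± 0.10 with CIC::NUTM1 and by 0.07 ± 0.10 with CIC::DUX4, and LIN37 measured 0.939 ± 0.574 CPM (SD) with empty vector. The list's median difference was 0.018 (log2) with CIC::NUTM1 and -0.010 with CIC::DUX4, beside -0.001 for all genes. CDK4 and RB1, for example, measured 300 ± 9.84 and 51 ± 3.45 CPM with empty vector, 288 ± 9.94 and 57.6 ± 6.21 CPM with CIC::NUTM1 and 296 ± 3.77 and 48.4 ± 0.623 CPM with CIC::DUX4 (SD, n = 3), and were not called in any comparison.

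A list of 3 further CDK inhibitor genes stands beside the INK4 and CIP/KIP members. Of these, 2 were called higher with CIC::NUTM1, 1 with CIC::DUX4 and 3 between the fusions (1 of them without CIC::DUX4 replicate 1), where 11.5%, 6.96% and 4.97% of all genes were. CDKN2B, the INK4 inhibitor p15, measured 18.3, 19.2 and 20.2 CPM with empty vector, 60.2, 40.2 and 53.8 CPM with CIC::NUTM1 and 32.7, 26.3 and 26.9 CPM with CIC::DUX4. No group overlapped another, in the same order as for CCND1. CDKN2B rose by 1.41 ± 0.13 with CIC::NUTM1 (edgeR adjusted p = 1.74e-08) and by 0.58 ± 0.13 with CIC::DUX4 (edgeR adjusted p = 0.00377, and 0.0501 without CIC::DUX4 replicate 1), and the difference between the fusions was 0.84 ± 0.12 (edgeR adjusted p = 8.17e-05). CDKN2A, which encodes p16 and ARF, was not called against empty vector and was called between the fusions, where CIC::NUTM1 was higher (0.32 ± 0.08, edgeR adjusted p = 0.0111, lost in 3 of 9 refits, up to 0.0639). CDKN3, a phosphatase that acts on CDK2, rose with CIC::NUTM1 (0.47 ± 0.10, edgeR adjusted p = 0.00103) and was higher with it than with CIC::DUX4 (0.38 ± 0.10, edgeR adjusted p = 0.0162, lost in 2 of 9 refits, up to 0.176). CDKN2B-AS1 overlaps both CDKN2A and CDKN2B on the other strand.

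A list of 20 genes held ubiquitin ligase subunits and cofactors that act on G1 cyclins and CIP/KIP proteins, the deubiquitinases USP2 and USP28, which oppose removal, and the kinase GSK3B. Of these, 3 (15%) were called higher with CIC::NUTM1 and 4 (20%, GSK3B among them) with CIC::DUX4, beside 11.5% and 6.96% of all genes. The count with CIC::DUX4 was 1 with empty vector replicate 3 left out, and 2 with replicate 2 of either empty vector or CIC::DUX4 left out. None was called lower with either by edgeR, DESeq2 or limma-trend (4 and 1 at an unadjusted edgeR p under 0.05), while with CIC::NUTM1 3 were with upper quartile factors or library totals and 2 without CIC::NUTM1 replicate 2. FBXW7, the receptor that marks cyclin E1 for degradation, rose with both fusions (0.89 ± 0.11 and 0.47 ± 0.11, edgeR adjusted p = 6.64e-07 and 0.00434, the latter 0.0621 without empty vector replicate 3). It measured 28, 23.2 and 20.6 CPM with empty vector, 46.6, 40.6 and 45.6 CPM with CIC::NUTM1 and 34, 32.5 and 32.3 CPM with CIC::DUX4. The groups did not overlap, and FBXW7 was also called between the fusions (0.42 ± 0.10, edgeR adjusted p = 0.012, lost in 2 of 9 refits, up to 0.0711). CKS2, a small CDK-binding protein, was called with both (0.43 ± 0.08 with CIC::NUTM1 and 0.29 ± 0.08 with CIC::DUX4, edgeR adjusted p = 0.000214 and 0.0176, the latter lost in 4 of 9 refits, up to 0.114), and AMBRA1, which directs the degradation of D-type cyclins, with CIC::NUTM1 (0.29 ± 0.09, edgeR adjusted p = 0.0274, lost in 4 of 9 refits, up to 0.135, and with upper quartile factors or library totals, 0.0607 and 0.0562). RNF123, which ubiquitinates p27 in the cytoplasm, and GSK3B, whose kinase marks cyclin D1 for export and degradation, rose with CIC::DUX4 (0.26 ± 0.07 and 0.37 ± 0.08, edgeR adjusted p = 0.0255 and 0.00136) and were lower with CIC::NUTM1 than with CIC::DUX4 (-0.34 ± 0.07 and -0.29 ± 0.08, edgeR adjusted p = 0.00391 and 0.016). The RNF123 call with CIC::DUX4 was lost in 5 of 9 refits (edgeR adjusted p up to 0.127) and the GSK3B call between the fusions in 3 (up to 0.0929). SKP2 itself measured 124 ± 1.58, 111 ± 6.4 and 116 ± 6.13 CPM with empty vector, CIC::NUTM1 and CIC::DUX4 and was not called. The medians of the list were 0.058 with CIC::NUTM1 and -0.038 with CIC::DUX4.

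Of 10 FOXO factors and FOXO target genes other than CDKN1B, 3 (30%) were called higher with CIC::NUTM1 and 1 (10%) with CIC::DUX4, beside 11.5% and 6.96% of all genes, and 0 lower with either by edgeR, DESeq2 or limma-trend. The count with CIC::NUTM1 was 1 without empty vector replicate 2, and that with CIC::DUX4 was 0 without empty vector replicate 1 or CIC::DUX4 replicate 1. At an unadjusted edgeR p under 0.05, 0 were lower with CIC::NUTM1 and 3 with CIC::DUX4, and without a filter on low counts 2 genes were called lower with CIC::DUX4. IRS2, an adaptor of the insulin receptor, rose by 1.35 ± 0.14 with CIC::NUTM1 and by 0.53 ± 0.14 with CIC::DUX4 (edgeR adjusted p = 6.19e-08 and 0.0141, the latter lost in 2 of 9 refits, up to 0.144), and differed between the fusions by 0.81 ± 0.14 (edgeR adjusted p = 0.000252). It measured 11.4, 13 and 13 CPM with empty vector, 36.7, 25 and 34.1 CPM with CIC::NUTM1 and 20.4, 16.2 and 17.5 CPM with CIC::DUX4. The 3 genes lower with CIC::DUX4 at an unadjusted edgeR p under 0.05 were TXNIP (-0.41 ± 0.14), BNIP3 (-0.25 ± 0.10) and PINK1 (-0.17 ± 0.08). None of them was called by the edgeR fit described above. The transcription factors BCL6 (0.63 ± 0.17, edgeR adjusted p = 0.0141) and KLF6 (0.32 ± 0.10, edgeR adjusted p = 0.0208) were called with CIC::NUTM1, each lost in 3 of 9 refits (up to 0.0669 and 0.143), and BCL6 also between the fusions (0.66 ± 0.18, edgeR adjusted p = 0.0208, lost in 3 of 9, up to 0.138). FOXO1 and FOXO3 measured 21.3 ± 1.21 and 96 ± 4.03 CPM with empty vector, 18.7 ± 0.564 and 95.9 ± 2.44 with CIC::NUTM1 and 18.6 ± 2.7 and 92 ± 3.4 with CIC::DUX4, and neither was called.

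Of 21 other cyclin genes, 3 were called higher and 1 lower with CIC::NUTM1, and 3 higher and 0 lower with CIC::DUX4 by edgeR (3 lower at an unadjusted p under 0.05, 1 by DESeq2 and 0 by limma-trend). The share called higher was 14.3% with each, beside 11.5% of all genes with CIC::NUTM1 and 6.96% with CIC::DUX4. The share called lower was 4.76% with CIC::NUTM1 and 0% with CIC::DUX4, beside 3.83% and 1.27% of all genes. The 3 called higher with CIC::DUX4 were 1 with upper quartile factors and without empty vector replicate 3, CIC::DUX4 replicate 1 or CIC::DUX4 replicate 2. With upper quartile factors or library totals 3 were called lower with CIC::NUTM1. CCNYL1, of the cyclin Y group, rose by 0.93 ± 0.10 with CIC::NUTM1 and by 0.90 ± 0.10 with CIC::DUX4 (edgeR adjusted p = 2.92e-07 and 8.98e-07), with 29.4, 29.4 and 26.7 CPM in the empty vector libraries and 46.6 to 60.8 CPM in all 6 fusion libraries. The transcriptional cyclins CCNT2 (0.39 ± 0.10) and CCNK (0.29 ± 0.07) were called higher with CIC::NUTM1 and CCNT2 (0.30 ± 0.10) and CCNL1 (0.33 ± 0.10) with CIC::DUX4, of which the last 2 were lost in 5 of 9 refits each (edgeR adjusted p up to 0.248 and 0.299), CCNK in 1 (without CIC::NUTM1 replicate 3, 0.0674), and CCNT2 with CIC::NUTM1 in none. The CCNT2 call with CIC::DUX4 was also lost under 6 other settings, DESeq2 and limma-trend among them (adjusted p = 0.0562 and 0.0505, the highest and the lowest of the 6), and that of CCNL1 with upper quartile factors (0.0551). CCNI2, at 1.97 ± 0.462 CPM with empty vector, was called lower with CIC::NUTM1 (-1.52 ± 0.42, edgeR adjusted p = 0.013, up to 0.0573 in refits). Between the fusions CCNL2 was lower (-0.32 ± 0.09) and CCNY higher (0.24 ± 0.07) with CIC::NUTM1 (edgeR adjusted p = 0.0398 and 0.0494), and these calls were lost in 5 and 8 of 9 refits (edgeR adjusted p up to 0.152 and 0.284), and that of CCNY under 6 other settings (0.0581 to 0.123). Cyclin A2 (CCNA2), the S phase partner of CDK2, measured 179 ± 9.23, 161 ± 1.45 and 157 ± 4.75 CPM with empty vector, CIC::NUTM1 and CIC::DUX4. It was not called, with edgeR adjusted p = 0.0878 with CIC::NUTM1 and 0.0521, just over the threshold, with CIC::DUX4. The libraries of each fusion all lay below those of empty vector, as for 12.9% and 11% of all genes.

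Of 22 E2F target genes of DNA replication, 2 (9.09%) were called higher with CIC::NUTM1 and 1 (4.55%) with CIC::DUX4, beside 11.5% and 6.96% of all genes, and 0 lower by edgeR, DESeq2 or limma-trend (1 and 0 at an unadjusted edgeR p under 0.05). The licensing factor CDT1 was called higher with both fusions (0.26 ± 0.07 with CIC::NUTM1 and 0.28 ± 0.07 with CIC::DUX4, edgeR adjusted p = 0.00856 and 0.00806, each lost without empty vector replicate 2 and without replicate 1 of its own fusion, up to 0.0718 and 0.0658). The helicase subunit MCM7 was called higher with CIC::NUTM1, against empty vector (0.24 ± 0.06, edgeR adjusted p = 0.00369) and against CIC::DUX4 (0.26 ± 0.06, edgeR adjusted p = 0.00532). The log2 fold changes of the list lay between -0.15 and 0.26 with CIC::NUTM1 and between -0.12 and 0.28 with CIC::DUX4, with medians of 0.047 and -0.006. Of 19 tested G2 and mitosis genes (20 listed), the phosphatase CDC25C was called higher (0.50 ± 0.10, edgeR adjusted p = 0.000642) and the ubiquitin conjugating enzyme UBE2C lower (-0.21 ± 0.07, edgeR adjusted p = 0.0299, up to 0.202 in refits) with CIC::NUTM1, 5.26% each beside 11.5% and 3.83% of all genes. With upper quartile factors or library totals in place of TMM, 4 of them were called lower. With CIC::DUX4 none was called by edgeR, DESeq2 or limma-trend, with 1 higher and 2 lower at an unadjusted edgeR p under 0.05.

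**Figure D4:**
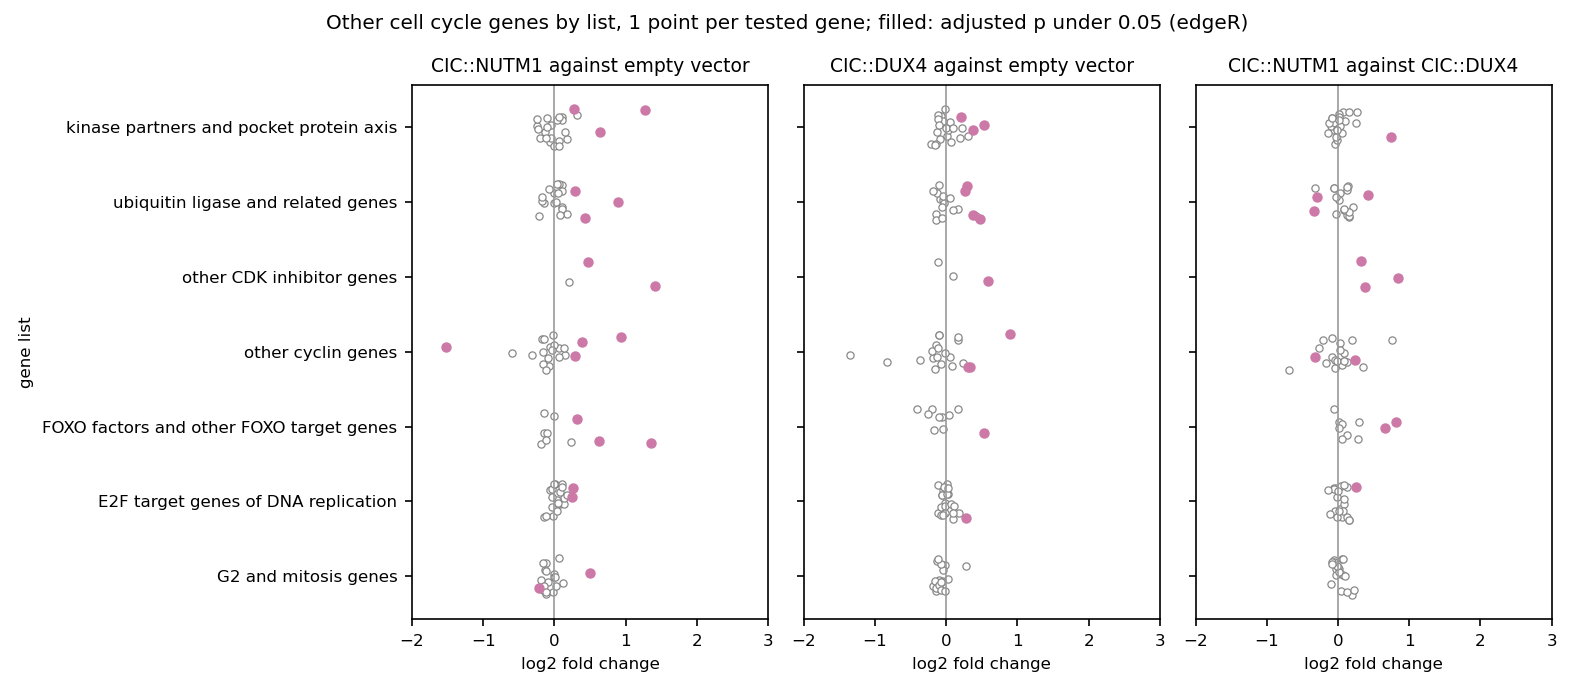
Log2 fold change (x axis) of each tested gene (points) of the 7 lists (y axis) in the 3 comparisons, filled where the edgeR adjusted p over all genes was under 0.05. The replication and mitosis lists reach from -0.21 to 0.50 with CIC::NUTM1.

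Genes whose pattern over the 9 libraries was most like that of 3 members were found by Pearson correlation of log2 CPM among 11376 genes with a mean of at least 5 CPM. The 9 libraries fall into 3 groups, and group levels in a like order are enough to give a high value. For CCND1 they were PTPN9 (0.994), ERRFI1 (0.993), COL5A3 (0.992), HBP1 (0.991) and DDX5 (0.991). ERRFI1, an inhibitor of the EGF receptor, measured 33.2 ± 1.72, 145 ± 26.7 and 88.8 ± 16.1 CPM with empty vector, CIC::NUTM1 and CIC::DUX4. For CCNE1 they were EFR3B (0.988), FGFBP3 (0.986), and ZNF608, UBALD2 and HMCN2 (0.984 each). For CDKN1B they were HOXA11 (0.995), HSPA5 (0.987), TBX3 (0.983), BECN1 (0.982) and NR2F2 (0.980). The homeobox gene HOXA11 measured 60.8 ± 2.04, 98.9 ± 8.76 and 45.7 ± 2.77 CPM, and the nuclear receptor gene NR2F2 156 ± 4.13, 278 ± 38.2 and 133 ± 10.4 CPM. With Spearman correlation 1 of the 5 genes was shared for each: COL5A3, EFR3B and NR2F2.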

How the data were processed

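PolyA RNA of 9 libraries was sequenced (3 groups of 3). The authors deposited 2 tables, of raw counts by Ensembl gene and of log2 CPM. Per the submitters' processing notes, STAR 2.7.10b, R 4.2.2, edgeR 3.40.2 and GRCh38 were used. The counting program, the annotation and the use of strand are not given in the sources used here. The deposited log2 CPM values, 15811 genes, were used only as an alternative and equalled log2 CPM with a prior count of 2 computed here for all 10 genes (largest difference 4.88e-15). Symbols matched 62622 of 62700 IDs. Positions, overlaps and lengths are from GENCODE 29 (GRCh38).

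Groups came from the sample labels. Per the labels' protocols, replicates were transfected on separate days, so p-values measure the spread between these transfections of 1 line. Library pairs within groups differed by more than counting noise (chi-square per degree of freedom 5.94 to 10.5), so none was merged. Genes were kept by filterByExpr and scaled by TMM, and edgeR 4.0.16 (R 4.3.3) fitted a quasi-likelihood model (robust option) to all 9 libraries, each group having its own mean (common dispersion 0.0102). The SE was derived from the F statistic of the test. On counts simulated for CIC::NUTM1 against empty vector (17161 genes tested, 200 changed by 1 on the log2 scale), 90% of the changed genes were recovered and 6.25% of 192 calls were false. The 10 genes and the 7 lists (120 genes) were chosen with earlier results of these data known. Called genes of a list were named by size, at most 6 for each list and comparison, and lists of 5 or fewer called genes whole. Genes most like CCND1, CCNE1 and CDKN1B are the 5 with the highest correlation. Alternatives were other scalings and filters, DESeq2 1.42.0, limma-trend (limma 3.58.1), a fit of the 2 groups alone, a replicate block, each library left out, another length and Spearman correlation. A planned comparison of the proteins was not made, and 1 planned list is not reported here. Figures were drawn with matplotlib 3.10.9.

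Whether same-numbered libraries pair was checked from their deviations from the group means. The 9 correlations of same-numbered libraries lay between -0.031 and 0.075, and the labels do not say that same-numbered libraries of different groups shared a day, so the numbers were not used as pairs.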

Additional observations from a re-analysis of the deposited data

How the results depend on the processing

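The number of the 10 genes called in each direction stayed within 1.5 times its value, in all 3 comparisons, under every alternative run: other scalings and filters, DESeq2, limma-trend, a fit of the 2 groups alone, the replicate block and each library left out. The comparisons with empty vector helped to choose the genes, and the number between the fusions includes CDKN1B. Of the 9 genes tested between the fusions, CDKN2C kept its call in all 9 refits with 1 library left out. CCND1 lost its call in 4 of these refits, which left CDKN2C alone, and CDKN2D gained a call in 1. The replicate block, in which the number is an added term although the labels give no shared day, changed no call of the 10 genes (CCND1 between the fusions 0.66, edgeR adjusted p = 6.43e-07; CDKN1B 0.76, -0.44 and 1.20; CDKN2C between the fusions 0.98), and gave 1472, 2739 and 1201 calls over all genes for CIC::DUX4 against empty vector, CIC::NUTM1 against empty vector and the fusions against each other, beside 1448, 2691 and 1162. CCNY between the fusions lost its call under it (edgeR adjusted p = 0.0581). Not every library correlated best with its own number. The count of all genes called with CIC::DUX4 was 961 with at least 10 counts in every library and 865 without CIC::DUX4 replicate 1, and that between the fusions was 690 without CIC::NUTM1 replicate 3. The share of called genes that were higher with CIC::NUTM1 than with empty vector was 75% with TMM, 61.7% with upper quartile factors (1807 higher, 1124 lower) and 61% with library totals (1783 and 1138), and between the fusions 75.2% and, with library totals, 61.4% (695 and 437).

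Values near 0 that were not called changed sign. CCND2 with CIC::DUX4 reached -0.04 without empty vector replicate 3 (refits with 1 library left out, -0.04 to 0.14), CDKN1C with CIC::DUX4 0.13 without empty vector replicate 3 and 0.01 without CIC::DUX4 replicate 1 (-0.15 to 0.13), and CDKN1C with CIC::NUTM1 -0.04 without empty vector replicate 2 and -0.08 without CIC::NUTM1 replicate 1 (-0.08 to 0.23). Between the fusions CCNE1 was -0.01 with DESeq2 size factors, -0.03 with upper quartile factors, -0.05 with library totals, -0.01 with DESeq2 and -0.01 in the fit of the 2 groups (refits -0.07 to 0.05), CDKN1A ranged from -0.12 to 0.07 and CDKN1C from -0.04 to 0.18. The cause was not tested. Over the refits with 1 library left out, 252 values of the 10 genes kept their direction and their side of the threshold, 4 lost a call (CCND1 between the fusions), 1 gained a call (CDKN2D between the fusions) and 13 changed sign. Of the list genes' values, 315 kept their call and 81 lost it in these refits, and 376 kept it and 20 lost it under the other alternatives. CDKN2D and CDKN1C, with the fewest counts with empty vector, had the largest SEs against it (0.18 and 0.17 with each fusion). CCND1, with far more counts, followed at 0.15, above CCNE2 at 0.12, so the SEs did not follow the counts alone. A planned comparison of proteins was not run.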

Other observations

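The spread between libraries of a group differed between genes and groups. The coefficient of variation over the 3 CIC::NUTM1 libraries was 28.7% for CDKN2D, 18.5% for CCND1, 13.4% for CDKN1B and 12.8% for CDKN2C. With empty vector it was 7.82%, 10.8%, 0.58% and 5.31% for the same genes, and with CIC::DUX4 14.1%, 11%, 3.38% and 5.68%. In CIC::NUTM1, replicate 1 was highest and replicate 2 lowest for CCND1, CCND3, CCNE1, CDKN1B, CDKN2C and CDKN2D. CCND2, CCNE2, CDKN1A and CDKN1C did not follow that order.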
